A study of Mus musculus with 6 samples.

Results

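The Hedgehog genes examined here were the ligand gene Shh, its receptor genes Ptch1, Boc and Gas1, the signal transducer gene Smo, the transcription factor genes Gli1, Gli2 and Gli3, and the ligand-binding inhibitor gene Hhip. They were 9 genes of 22180 measured, chosen by name. Each was read from the probe set (a group of array probes summarised to 1 value) that carries its symbol alone, and all 9 had exactly 1 such probe set. RNA of whole mouse lung buds at stage E12.5 was measured on 6 arrays. The 3 control lungs had the genotype Shh cre/+, and the 3 mutant lungs were homozygous for a floxed Fzd2 allele on top of that same Shh cre/+ genotype. Cre was expressed from the Shh locus, which is active in lung epithelium, so that the Frizzled receptor gene Fzd2 was to be removed from the epithelium and not from the mesenchyme around it. Both groups carried the Cre allele at Shh, so the number of unaltered Shh copies was matched by design. Where the Shh probe sets lie against the altered stretch is not known here, nor whether they also read transcript of the Cre allele. The series sets out to identify genes regulated through Fzd2 in the epithelium. The labels call the arrays biological replicates and do not say how many lungs went into each. Values of a group are listed throughout in the order of its replicates 1, 2 and 3.

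In the developing lung, Shh is secreted by the epithelium and acts mainly on the mesenchyme next to it. Without ligand, the receptor Ptch1 holds the membrane protein Smo inactive, and Gli3 and Gli2 are processed towards repressors. When Shh binds Ptch1, helped by the coreceptors Boc, Gas1 and Cdon, Smo is released and Gli proteins activate targets. Ptch1, Gli1 and Hhip are themselves such targets and are widely used as readouts of the pathway, whereas Boc, Gas1 and Cdon are known as genes that Hedgehog signalling represses. Shh is also known to limit expression of Fgf10, the mesenchymal signal that drives budding.

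Lung identity was borne out by the marker genes: on the log2 scale the lung epithelial factor gene Nkx2-1 lay between 10.05 and 10.57 on the 6 arrays, and the lung mesenchyme factor gene Tbx4 between 10.93 and 11.10. The targeted gene Fzd2 had log2 values of 9.57, 9.82 and 9.75 in the controls and 9.67, 9.07 and 9.54 in the mutants. Mutant replicate 1 therefore lay inside the control range, and the log2 difference of -0.29 (SE 0.15, n = 3 and 3) did not pass limma (adjusted p = 0.475) and was -0.10 without mutant replicate 2. The position of its probe set against the deleted stretch is not known here, so the value is a weak check of the genotype. Several arrays stood apart in genes of other tissues. Control replicate 1 had a mean log2 value of 9.31 over 7 genes of adult small intestine, against at most 6.50 elsewhere, and mutant replicate 2 had 10.77 over 6 adipose genes, against at most 7.69 elsewhere. Mutant replicate 1 had 9.69 over 6 heart muscle genes, against at most 8.43 elsewhere, and control replicate 2 was the only array without clear signal of 3 Y-linked genes (5.63, against at least 10.39 elsewhere). For the 9 Hedgehog genes, values without these arrays are given below.

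No Hedgehog gene passed the test between mutant and control lungs. Of the 9 genes, 7 had a lower and 2 had a higher mean in mutant lungs. Their median log2 difference (mutant minus control) was -0.09, beside 0.01 over all genes. limma called 0 of the 9 at an adjusted p under 0.05, where it called 0.0631% of all genes. At an unadjusted p under 0.05 there were 4 of the 9: Hhip, Ptch1 and Shh with lower means, where 5.15% of all genes were at that level and lower, and Gas1 with a higher mean, where 7.34% of all genes were so. The 3 mutant arrays lay apart from the 3 controls in 2 of the 9 genes, Ptch1 and Hhip. Groups did not overlap in 19.4% of all genes, and in 8.83% with the mutants lower, so the share among the 9 was near that of genes at large when both directions are counted.

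**Figure D1:**
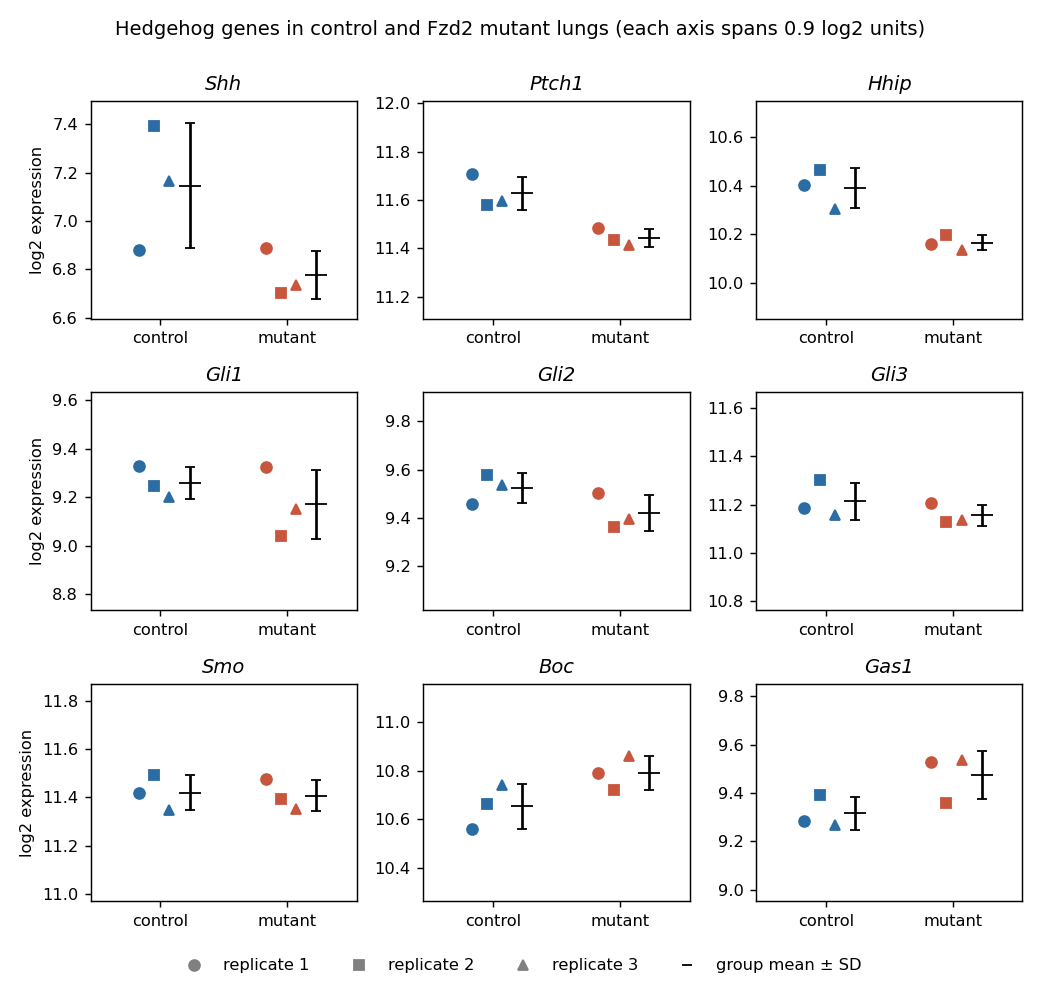
Log2 expression of each Hedgehog gene (vertical axes, each spanning 0.9 log2 units) on the 3 control and 3 mutant arrays; symbols mark replicates 1 to 3, and the black bar with whiskers is the group mean ± SD. The groups are apart in Ptch1 and Hhip and overlap in the other 7 genes.

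The ligand gene Shh had log2 values of 6.88, 7.39 and 7.17 in the controls and 6.89, 6.70 and 6.74 in the mutants. The groups met at control replicate 1, which lay just under mutant replicate 1, and the controls varied more than the mutants (SD 0.26 and 0.10, n = 3 each). The log2 difference was -0.37 (SE 0.12, 95% interval -0.66 to -0.08), a mutant level of 77.4% of control, and it did not pass (limma, unadjusted p = 0.0181, adjusted p = 0.317). By exact permutation (two-sided) p was 0.2, and 3 arrays against 3 cannot give less than 0.1. The difference was -0.50 without control replicate 1 and -0.25 without control replicate 2. This probe set was dim: its control mean of 7.15 lay under the arrays' medians of 7.29 to 7.32.

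Another probe set is annotated with Shh together with 9530036O11Rik, a long non-coding RNA gene whose span overlaps that of Shh in the RefSeq gene table, and so cannot be assigned to either gene. Its log2 values were 9.62, 9.70 and 9.55 in the controls and 9.41, 9.27 and 9.42 in the mutants. Here the groups did not overlap and the replicates were close together (SD 0.08 in each group, n = 3). The groups differed by -0.26 (log2, SE 0.06, 95% interval -0.40 to -0.11), or 83.8% of the control level, which also did not pass (limma, adjusted p = 0.220).

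Shh is made by epithelial cells, and epithelial genes as a group were lower in mutant lungs. Of 25 epithelium markers, which leave out Shh, 24 had a lower mean and 1 a higher one, and 1 passed limma over all genes. Their summed level on the linear scale ran from 18652 to 19872 in control arrays and from 15129 to 16205 in mutant arrays, and their mean log2 value differed by -0.27. In a whole organ, fewer epithelial cells and less RNA per epithelial cell cannot be told apart. Relative to the marker mean of its own array, Shh stood at -2.33, -1.81 and -1.96 log2 units in the controls and at -2.08, -2.13 and -2.21 in the mutants. All 3 mutants thus lay inside the control range, and the log2 difference shrank to -0.10 (two-sided exact permutation p = 0.6). Without control replicate 2 it was 0.01, and without control replicate 1 it was -0.25. The probe set shared with 9530036O11Rik stood at 0.41, 0.49 and 0.42 in controls and at 0.44, 0.44 and 0.47 in mutants relative to the same mean. That is a log2 difference of 0.01 (exact permutation p = 0.6), with SDs of 0.05 and 0.02 (n = 3 each). Array by array, the shared probe set moved closely with the epithelium markers, and its groups overlapped fully once they were subtracted. The marker list was chosen with earlier results of these data known, and its mean was lower in mutants. Subtracting it raises the mutant minus control difference of any gene by the same amount. Why the Shh values were lower was not tested.

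**Figure D2:**
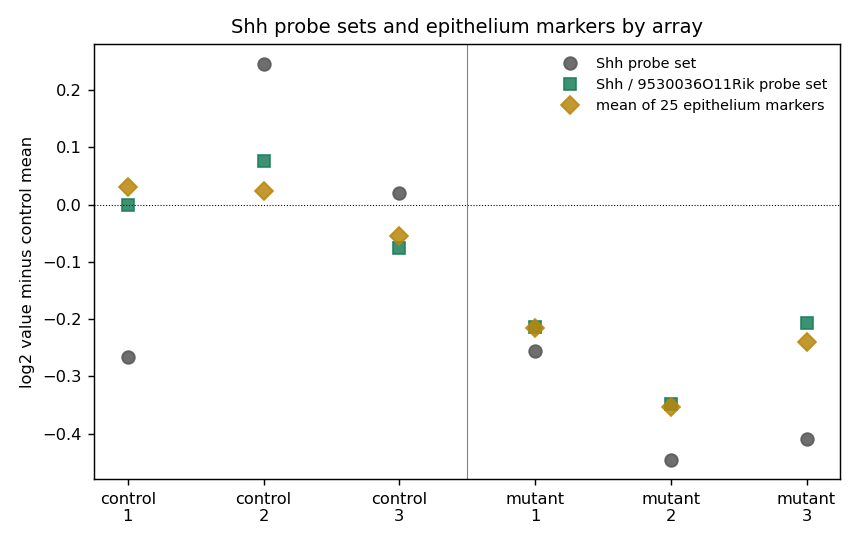
Log2 value minus the control mean (vertical axis) of the Shh probe set, the probe set shared by Shh and 9530036O11Rik, and the mean of 25 epithelium markers on each of the 6 arrays. The shared probe set and the marker mean lie nearly together on every array, whereas the dim Shh probe set scatters among the controls from 6.88 to 7.39 before centring.

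Ptch1, the receptor that is both the brake on Smo and a target of the pathway, had log2 values of 11.71, 11.58 and 11.60 in the controls and 11.48, 11.43 and 11.41 in the mutants. All mutants lay below all controls, with a gap of 0.10 between the nearest arrays. Mutants differed by -0.18 on the log2 scale (SE 0.05, 95% interval -0.31 to -0.06), a mutant level of 88.0% of control with an interval from 80.7% to 96.0%. It did not pass limma (unadjusted p = 0.00995, adjusted p = 0.285), and the exact permutation p was 0.1, the smallest that this design allows.

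Hhip encodes a surface protein that binds and sequesters the ligand. Its log2 values were 10.41, 10.47 and 10.30 in the controls and 10.16, 10.20 and 10.14 in the mutants. All mutants lay below all controls, again with a gap of 0.10, and the mutants were tightly grouped (SD 0.03, against 0.08 in controls, n = 3 each). The log2 difference of -0.23 (SE 0.06, 95% interval -0.36 to -0.09) corresponds to 85.5% of the control level, with an interval from 78.0% to 93.7%. It had the smallest p of the 9 genes and did not pass limma (unadjusted p = 0.00449, adjusted p = 0.230; exact permutation p = 0.1).

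Gli1 encodes the activator whose transcription depends most directly on the pathway. Its log2 values were 9.33, 9.25 and 9.20 in the controls and 9.32, 9.04 and 9.15 in the mutants. Mutant replicate 1 lay among the controls, just under the highest of them, while the other mutants lay below every control. Their log2 difference was -0.09 (SE 0.08, 95% interval -0.27 to 0.09; limma, adjusted p = 0.659), and the interval spans mutant levels from 82.8% to 106.8% of control. The value was -0.16 without mutant replicate 1 and -0.02 without mutant replicate 2. Averaged over Ptch1, Gli1 and Hhip, the log2 level relative to the control mean was 0.05, 0.01 and -0.06 in the controls and -0.10, -0.20 and -0.19 in the mutants. All 3 mutants were below all 3 controls in this mean. The same held for Ptch1 and for Hhip alone but not for Gli1, so the mean adds no separate support.

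These readouts are made largely outside the epithelium, and markers of those cells did not all move with them. Of 16 mesenchyme markers, 11 had a higher mean in mutants and 1 passed limma, and their summed linear level ran from 32637 to 33918 in controls and from 35148 to 36606 in mutants. Of 10 smooth muscle markers, 8 had a lower mean and 0 passed, with sums of 11924 to 12622 in controls and 10232 to 11242 in mutants. The part of these shifts in the Ptch1 and Hhip values was not tested.

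The stretches before the start sites of Ptch1 and Hhip are shown because these were the members whose groups did not overlap. They are the 250 bases upstream of the start in the RefSeq promoter table of build GRCm38.p6, which held 6 of the 9 genes, and are written 5′ to 3′ on the minus strand, with capitals on the 6-base core CCACCC of the Gli binding motif, in either orientation. The Ptch1 stretch is chr13:63565736-63565985 and the Hhip stretch is chr8:80058009-80058258.
Ptch1: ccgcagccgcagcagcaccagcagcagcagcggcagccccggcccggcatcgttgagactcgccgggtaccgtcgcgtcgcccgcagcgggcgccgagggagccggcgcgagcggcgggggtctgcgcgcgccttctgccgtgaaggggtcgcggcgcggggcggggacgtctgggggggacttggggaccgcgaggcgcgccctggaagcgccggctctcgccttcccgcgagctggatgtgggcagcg
Hhip: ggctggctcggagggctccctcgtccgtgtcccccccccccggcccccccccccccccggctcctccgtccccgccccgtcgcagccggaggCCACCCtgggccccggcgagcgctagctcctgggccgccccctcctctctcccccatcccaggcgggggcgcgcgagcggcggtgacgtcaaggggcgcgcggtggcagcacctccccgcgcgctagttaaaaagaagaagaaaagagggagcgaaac
The full motif GACCACCCA, searched on both strands, was in neither stretch and in 0 of the 6 promoters held, and 0.225% of 32851 promoters in the table contain it within the same 250 bases. The core CCACCC, which is part of that motif and was searched after the full motif gave no match, occurs 1 time in Hhip and 0 times in Ptch1. It is in 4 of the 6 (Hhip, Gli2, Gli3 and Smo) and in 28.1% of all promoters. Both stretches are rich in G and C, 78.4% in Ptch1 and 76% in Hhip, and the promoters at large were not matched for this. With the full motif in so few promoters of the table, its absence from 6 says little. Bases further from the start were not searched.

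Smo, the transducer, differed least of the 9 genes. Its log2 values were 11.42, 11.49 and 11.35 in the controls and 11.48, 11.39 and 11.35 in the mutants, so that the groups covered the same range. Its log2 difference was -0.01 (SE 0.06; limma, adjusted p = 0.947), and its 95% interval allows mutant levels from 90.1% to 109.0% of control. Its sign turned without control replicate 2 (0.02) and without mutant replicate 3 (0.01).

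Gli2, the main activator in the lung mesenchyme, had log2 values of 9.46, 9.58 and 9.54 in the controls and 9.50, 9.36 and 9.40 in the mutants. Mutant replicate 1 lay among the controls and the other mutants lay below them. The log2 difference was -0.10 (SE 0.06, 95% interval -0.24 to 0.03; limma, adjusted p = 0.50). Gli3, the main repressor, had values of 11.18, 11.30 and 11.16 in controls and 11.21, 11.13 and 11.13 in mutants, with the same order of replicates among mutants as in Gli1, that is with replicate 1 highest. Its log2 difference was -0.06 (SE 0.06, 95% interval -0.19 to 0.07; limma, adjusted p = 0.687), and it was -0.01 without control replicate 2.

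The coreceptor genes had higher means in mutant lungs, opposite in sign to Ptch1 and Hhip. Boc, which binds Shh at the cell surface, had log2 values of 10.56, 10.66 and 10.74 in the controls and 10.79, 10.72 and 10.86 in the mutants. Only the pair of mutant replicate 2 and control replicate 3 kept the groups from being apart. The log2 difference was 0.14 (SE 0.07, 95% interval -0.02 to 0.29; limma, adjusted p = 0.436), and it was 0.09 without control replicate 1. Gas1, a lipid-anchored coreceptor, had values of 9.28, 9.39 and 9.27 in controls and 9.53, 9.36 and 9.53 in mutants. Here mutant replicates 1 and 3 lay above every control and mutant replicate 2 lay among them. The log2 difference was 0.16 (SE 0.07, 95% interval 0.0038 to 0.31), a mutant level of 111.6% of control, and it did not pass (limma, unadjusted p = 0.0458, adjusted p = 0.394). It was 0.22 without mutant replicate 2 and 0.13 without mutant replicate 3.

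Cdon, the related coreceptor outside the 9 genes, had log2 values of 9.63, 9.73 and 9.74 in the controls and 9.73, 9.92 and 9.89 in the mutants. Mutant replicate 1 lay among the controls and the others above them (log2 difference 0.15, SE 0.07; limma, adjusted p = 0.416). The difference was 0.07 with control replicate 1 and mutant replicate 2 both left out. Averaged over Boc, Gas1 and Cdon, the level relative to the control mean was -0.07, 0.04 and 0.03 in the controls and 0.13, 0.11 and 0.21 in the mutants. Within each array, Ptch1 relative to Boc differed between the groups by -0.32 log2 units, and Hhip relative to Gas1 by -0.38. Such within-array ratios are free of any shift common to a whole array. They were chosen after the values had been seen, so no test is given. Each pairs genes of opposite sign and restates their differences given above. Ptch1 relative to Gli1, which have the same sign, differed by -0.10. Neither the ratios nor the mean over Boc, Gas1 and Cdon add separate support. Of the 16 mesenchyme markers given above, 11 had the same sign as the coreceptor genes and 5 had the opposite sign. The sign of the coreceptor genes was shared by 6 of 6 mesothelium markers (summed linear level 3536 to 4021 in controls and 4187 to 4634 in mutants). It was also shared by 5 of 8 leukocyte markers (3168 to 3232 and 3416 to 3734), with 0 of either list passing limma. Heart muscle and adipose markers shared it in 6 of 6 each, and neural crest and neuron markers in 5 of 6. It was held by 3 of 8 endothelium, 2 of 6 erythroid and 2 of 10 smooth muscle markers. Intestine markers held it in 0 of 7 and epithelium markers in 1 of 25. The median log2 difference over all genes, 0.01, was also above 0. The part of these markers in the coreceptor values was not tested.

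**Figure D3:**
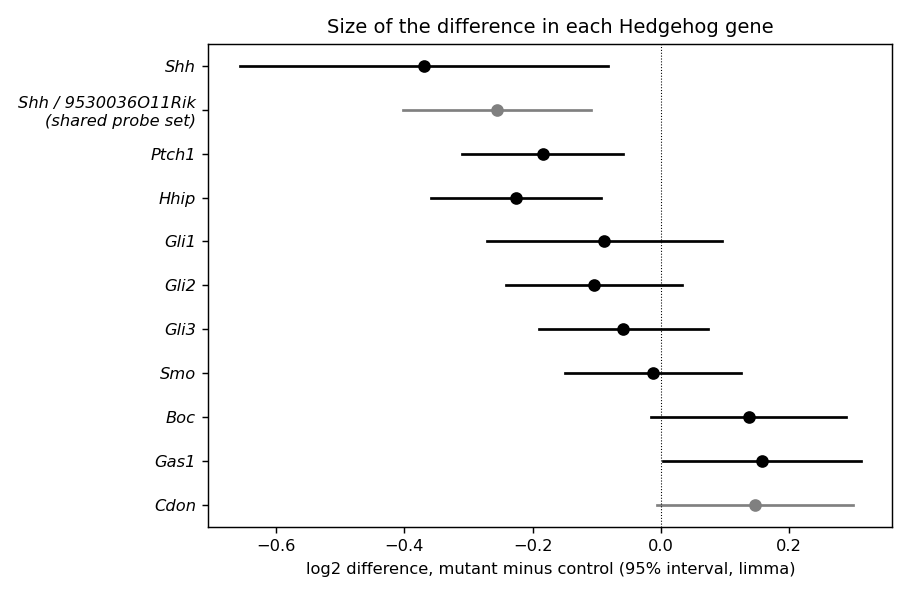
Log2 difference, mutant minus control (horizontal axis), of each Hedgehog gene with its 95% interval from limma (3 arrays per group); grey marks the probe set shared with 9530036O11Rik and Cdon, which are outside the 9 genes. Intervals of Shh, Ptch1 and Hhip lie below 0 and that of Gas1 just above it, before any adjustment for the number of genes tested.

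With each array left out in turn, Shh, Ptch1, Hhip, Gli1, Gli2 and Gli3 kept a lower and Boc and Gas1 a higher mean, and Smo changed sign. Ptch1 was lowest at -0.21 when control replicate 2 was dropped and highest at -0.14 when control replicate 1 was. Hhip was lowest at -0.27 without control replicate 3 and highest at -0.19 when control replicate 2 was dropped. At an unadjusted p under 0.05 there were 2 to 5 of the 9 genes, with 2 without mutant replicate 3 and 5 without mutant replicate 1. When the arrays with intestine and adipose genes (control replicate 1 and mutant replicate 2) were both left out, the log2 differences were -0.47 in Shh, -0.14 in Ptch1, -0.24 in Hhip and 0.20 in Gas1, and that of Gli1 turned to 0.01. With the epithelium marker mean as a covariate, Shh was at -0.23 (limma, unadjusted p = 0.553), Ptch1 at -0.10 (limma, unadjusted p = 0.563), Hhip at -0.17 (unadjusted p = 0.348) and Gas1 at 0.47 (unadjusted p = 0.0191, adjusted p = 0.897), and Gli1, Gli2, Gli3 and Smo changed sign. That covariate nearly repeats the group, since all mutants lay below all controls in it.

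**Figure D4:**
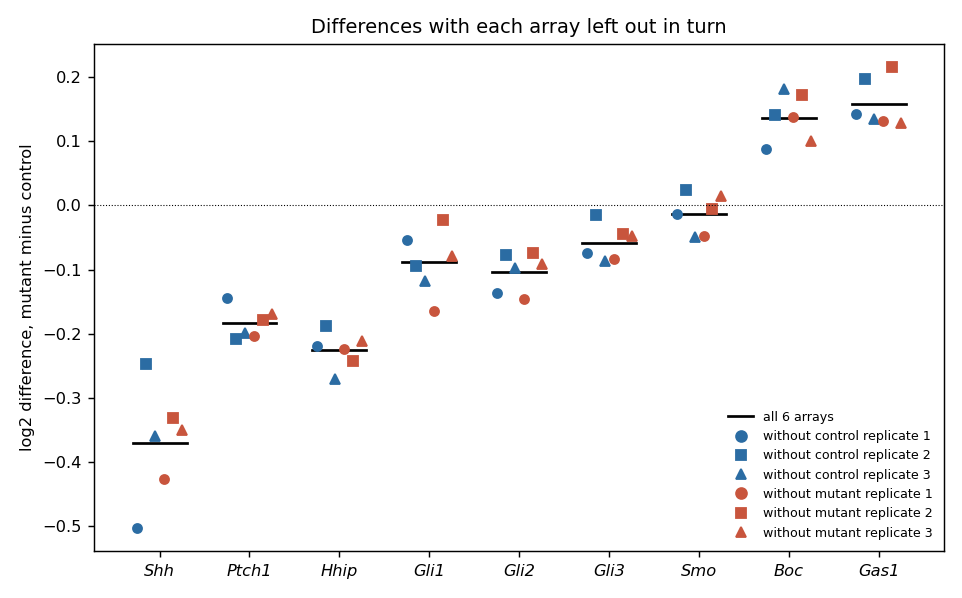
Log2 difference, mutant minus control (vertical axis), of each of the 9 genes with all 6 arrays (black line) and with each array left out (symbols; blue for a control, red for a mutant). Shh moves most, from -0.50 to -0.25, and Smo crosses 0.

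Other components of the pathway were not called. Of 40 listed genes 35 were measured, of which 16 had higher and 19 had lower means, with a median log2 difference of -0.0025. limma called 0, with 5 at an unadjusted p under 0.05 (4 higher and 1 lower, where 7.34% and 5.15% of all genes were), and the groups did not overlap in 7 (19.4% of all genes). Smallest by p were Lrp2, an endocytic receptor that can bind Shh (0.25, SE 0.05; adjusted p = 0.179), and Scube1, of the secreted Scube family that acts in ligand release (0.24, SE 0.06; adjusted p = 0.259). They were followed by Btrc, a subunit of the ubiquitin ligase that directs Gli processing (0.16, SE 0.05; adjusted p = 0.303), and Gpc6, a cell surface glypican (-0.16, SE 0.06; adjusted p = 0.340). In Lrp2 the log2 values were 7.86, 7.74 and 7.72 in the controls and 8.02, 8.03 and 8.03 in the mutants, with all mutants above all controls.

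Among the core inhibitors, Sufu, which restrains Gli proteins, had a log2 difference of -0.06 (SE 0.06), and Kif7, the ciliary kinesin of the pathway, 0.07 (SE 0.07). Neither interval excluded 0. The other ligand genes Ihh and Dhh had differences of 0.18 (SE 0.09; adjusted p = 0.433) and 0.07 (SE 0.07; adjusted p = 0.696).

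Genes commonly cited as Hedgehog targets in mesenchyme and other tissues did not shift to 1 side. Of 20 listed, 19 were measured, 10 with higher and 9 with lower means, with a median log2 difference of 0.01. limma called 0, with 4 at an unadjusted p under 0.05 (3 lower and 1 higher, where 5.15% and 7.34% of all genes were). The groups did not overlap in 4 of the 19, a share near the 19.4% of all genes. These were Mycn, a proto-oncogene also expressed in epithelial tips (-0.30, SE 0.06; adjusted p = 0.179), the D cyclin genes Ccnd2 (-0.15, SE 0.05; adjusted p = 0.308) and Ccnd1 (-0.15, SE 0.05; adjusted p = 0.333), and Igfbp6, an insulin-like growth factor binding protein gene, with a higher mean (0.17, SE 0.06; adjusted p = 0.349). The forkhead genes Foxf1, Foxf2 and Foxl1, which Shh is known to maintain in gut and lung mesenchyme, had log2 differences of -0.06 (SE 0.06), -0.01 (SE 0.09) and -0.02 (SE 0.09). For Foxf1 the 95% interval ran from -0.20 to 0.08.

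**Figure D5:**
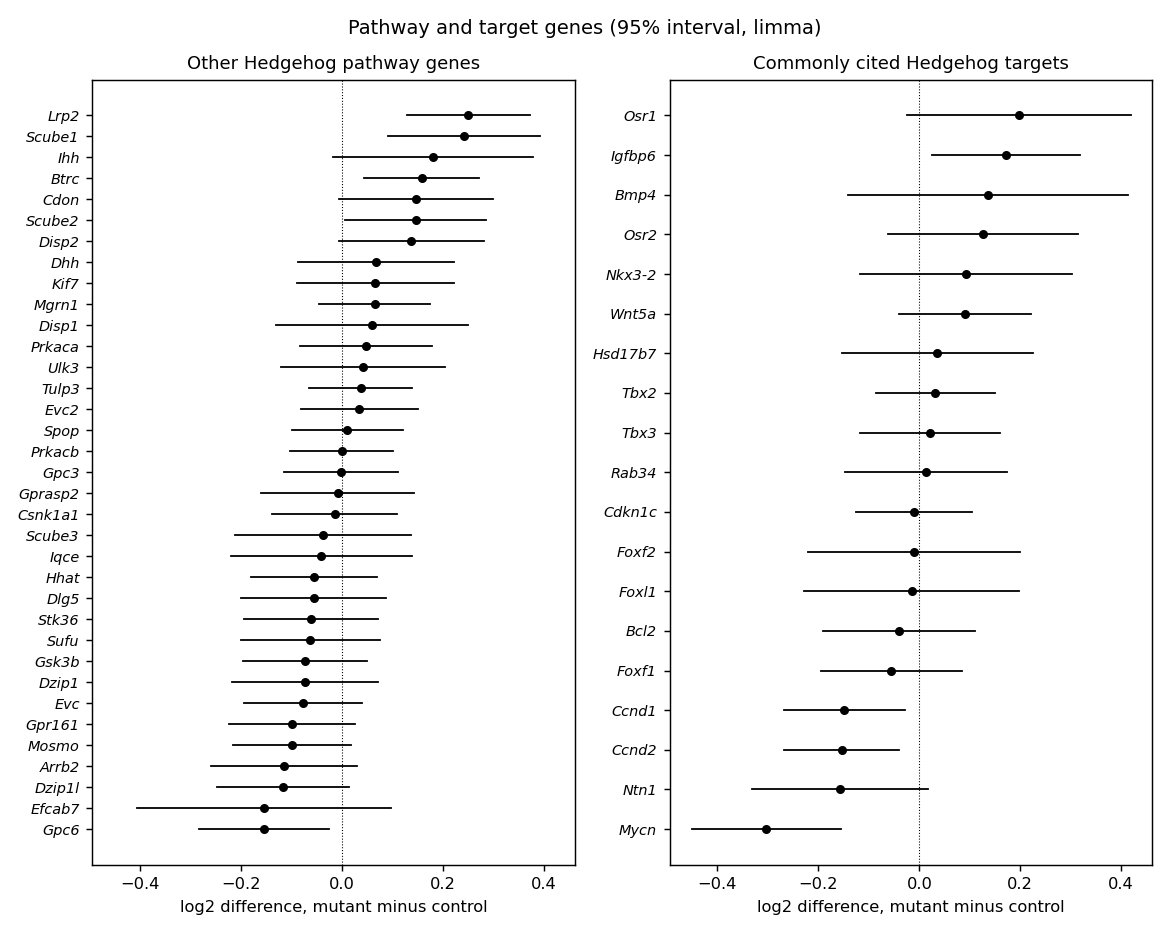
Log2 difference, mutant minus control (horizontal axes), with 95% intervals from limma for 35 other Hedgehog pathway genes (left) and 19 commonly cited Hedgehog targets (right), ordered by size. Lrp2 and Scube1 lie highest on the left and Mycn lowest on the right, and none passed after adjustment over all genes.

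Fgf10 and the genes around it, which form the branching loop with Shh, were listed as context. Fgf10 had log2 values of 8.35, 8.21 and 8.22 in the controls and 8.55, 8.65 and 8.23 in the mutants. Mutant replicates 1 and 2 lay above every control and mutant replicate 3 lay among them (log2 difference 0.22, SE 0.11, 95% interval -0.03 to 0.47; limma, adjusted p = 0.443). It was 0.18 without mutant replicate 1, 0.13 without mutant replicate 2 and 0.34 without mutant replicate 3. Its receptor gene Fgfr2, which is epithelial in the lung, had a difference of -0.22 (SE 0.06; adjusted p = 0.269). Of the FGF response genes, Spry2 had 0.30 (SE 0.04; adjusted p = 0.0911), Etv4 0.18 (SE 0.06; adjusted p = 0.319) and Etv5 -0.23 (SE 0.07; adjusted p = 0.295), so they did not share a sign. Spry1, Spry4 and Dusp6 had differences of 0.07, 0.09 and 0.05, the ligand genes Fgf7 and Fgf9 0.07 and 0.02, Bmp4, which also stands among the cited targets, 0.14, and the surfactant gene Sftpc -0.27 (SE 0.24). limma called 0 of these 12 genes, with 4 at an unadjusted p under 0.05 (2 lower and 2 higher, where 5.15% and 7.34% of all genes were). Without mutant replicate 2 the mean differences of Fgf7 and Spry4 turned to -0.07 and -0.01, without mutant replicate 1 those of Fgf9 and Dusp6 turned to -0.02 and -0.02, and without control replicate 1 those of Fgf9 and Spry1 turned to -0.01 and -0.0082. Dropping mutant replicate 1 gave 0.02 for Bmp4 and -0.53 for Sftpc. Bmp4 was 0.27 when mutant replicate 2 was dropped, and Sftpc was -0.06 when mutant replicate 3 was.

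Genes whose values ran most like those of Shh over the 6 arrays were Arhgap11a, Zfp410, Ttf1 (a gene other than Nkx2-1), Mllt3 and Snx2, with Pearson r from 0.988 to 0.994 among 10566 named genes above the median of mean expression. Those most like the mean of Ptch1, Gli1 and Hhip were Htt, Knl1, Frrs1, Pole and Ano1, with r from 0.989 to 0.995. These r describe 6 arrays in 2 groups, and all genes compared share the same arrays. They were picked as the highest among 10566 genes over few arrays, so they do not show a link between genes. None of these 10 genes passed limma (adjusted p from 0.164 to 0.623).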

How the data were processed

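Whole lung buds at E12.5 were measured on 6 microarrays, 3 per group, from 100 ng of total RNA each, per the labels. The authors deposited log2 expression values produced by RMA in the oligo package (tools named in the submitters' processing notes), with no version or filter stated there. RMA normalizes arrays to a common distribution, so changes are relative to the bulk of genes. Of 41345 probe sets, 23521 carried 1 symbol and gave 22180 genes, with the brightest probe set per gene and no filter on dim genes. Array medians were 7.29 to 7.32, and array number limits the precision.

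limma 3.58.1 (R 4.3.3) was fitted to all genes with group as its sole term; tests were two-sided, p was Benjamini-Hochberg adjusted over all genes, and the threshold was 0.05. The script was tested on data with known answers. Exact permutation tests were two-sided. Figures used matplotlib 3.10.9.

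The 9 genes, the marker, pathway, target and branching lists, and the alternatives were chosen with earlier results of these data known. Named were the 9 genes, Cdon, Fzd2, all branching loop genes, the 4 genes with the smallest p per list, and the 5 most alike by Pearson r; others named from a list were picked after their values were seen. Alternatives were each array left out, another normalization, a filter on dim genes, averaged probe sets, array weights, a trended robust variance, a block for the replicate number, an epithelial covariate and, added later, the probe set that Shh shares. Same-numbered arrays did not deviate together (r = -0.05, -0.06 and 0.07), so the numbers were not treated as pairs.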

Additional observations from a re-analysis of the deposited data

How the results depend on the processing

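Under 14 alternatives and with the Shh probe set added after the data were seen, limma called 0 of the 9 Hedgehog genes, 0 of the other pathway genes and 0 of the cited targets (2 to 5, and 1 with the epithelial covariate, of the 9 at an unadjusted p under 0.05). Of 127 values of single Hedgehog genes, 119 kept their sign and 8 reversed. Some of the 127 could not reverse. The filter on dim genes, averaged probe sets (1 per gene here), trended robust variance and replicate block leave these log2 differences unchanged. Gli1 turned to 0.0126 with control replicate 1 and mutant replicate 2 both left out. With the epithelium marker mean as covariate Gli1 was 0.33, Gli2 0.0265, Gli3 0.0934 and Smo 0.14. Smo ran from -0.0489 to 0.0242 with 1 array left out, was 0.0242 without control replicate 2 and 0.0146 without mutant replicate 3, and was 0.0065 after a further quantile normalization. Shh relative to the epithelium markers (-0.10) ran from -0.2491 to 0.0104 with 1 array left out, and was 0.0138 with the shared probe set and -0.2538 without those 2 arrays. The cause of these reversals was not tested. The count of all genes called by limma was 14. It was 0 with any 1 array left out (1797 to 3084 at an unadjusted p under 0.05), 0 without those 2 arrays (2716), 0 with the replicate block (2511) and 0 with the epithelial covariate (1200). It was 25 above the 30th percentile of expression, where fewer genes were tested, and 46 with trend and robust variance. With the replicate number as a block, which is not a pairing here, no Hedgehog gene changed its call, and Shh, Ptch1 and Hhip had adjusted p of 0.430, 0.386 and 0.350. The Shh probe set was dim, and its value ran from -0.50 to -0.25 with 1 array left out.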
